A study of Rattus norvegicus with 8 samples.

Results

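The transcripts described here belong to 9 rat genes that move or store iron, or that set how a cell meets ferroptosis. They are Tfrc and Slc11a2 (iron uptake), Fth1 and Ftl1 (storage), Slc40a1 and Cp (export), and Acsl4, Gpx4 and Aifm2 (ferroptosis). The rule that finds them uses names and no measured value, although the genes were picked with earlier results of these data known: a probe counted when its RefSeq accession belonged to 1 of the 9 genes. All 9 were on the array, with 17 of its 30367 probes that were not controls, out of 15637 genes that could be named. The kidneys came from male rats labelled as 10 weeks of age, taken at day 28 after saline (4 samples) or after colistin at 30 mg/kg (4 samples), and total RNA of each was hybridised to a 1-colour array. The labels used here name no strain or genotype and no dosing schedule. Colistin is a polymyxin antibiotic that can injure the renal tubule, and the comparison asks how these transcripts differed after it.

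Cells take up transferrin-bound iron through the transferrin receptor, and a divalent metal carrier moves the released iron into the cytosol. There it is stored inside a shell of ferritin heavy and light chains, or leaves through ferroportin, helped by copper oxidases such as ceruloplasmin. Ferroptosis is a form of cell death driven by iron-dependent peroxidation of membrane lipids, and the renal tubule is one of the sites where it has been studied. Acyl-CoA synthetase ACSL4 supplies the polyunsaturated lipids that are peroxidised, while GPX4 and, in parallel, the ubiquinone reductase encoded by Aifm2 protect against it. Much of the control of ferritin, ferroportin and the transferrin receptor by iron acts on translation or on mRNA stability, and an array reads only the amount of mRNA.

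Levels are given as log2 signal relative to the array's 75th percentile, so that 0 is a probe as bright as that percentile and each unit is a doubling. The saline arrays were dimmer before scaling, with 75th percentiles from 156 to 197 against 271 to 317 for colistin, and 69.3% to 75.8% of their spots were well above background, against 79.1% to 83.9%. Precision is limited by having 4 arrays per group. The labels give the tissue as kidney, and the title refers to injured tubules. Each of the 8 proximal tubule markers was well above background on all 8 arrays, and 2 of them fell. Estimates were negative for 6 and positive for Slc5a2 (1.14) and Cubn (1.25), which did not pass. The summed level of the 8 lay between 8.93 and 9.65 in saline and between 7.49 and 8.27 in colistin. Such sums are set mainly by the brightest markers of a list. The summed level of 4 thick ascending limb markers was 4.96 to 6.14 in saline and -0.15 to 2.11 in colistin, with 1 of them (Egf) lower by the test, and 1 of 4 intercalated cell markers (Slc26a4) and 1 of 4 podocyte markers (Podxl) fell too. Markers of other cells were present as well. The summed level of 6 endothelial markers was 5.06 to 5.73 in saline and 2.27 to 2.93 in colistin, and 4 of the 6 fell. That of 6 macrophage markers was 3.4 to 4.09 in saline and 2.20 to 2.997 in colistin, and 1 of the 6 fell. Of all genes, 0.548% passed as lower. The principal cell, distal tubule and fibroblast lists had 0 calls and median log2 fold changes of -2.17, -1.66 and -2.23. In whole tissue, fewer cells of a type and less RNA per cell cannot be told apart, and the part of these shifts in the results below was not tested.

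None of the 9 genes passed the test after colistin. All 9 were tested, since each was well above background on at least 3 of the 4 arrays of a group, and their adjusted p-values ran from 0.168 (Cp) to 0.798 (Acsl4) in limma with Benjamini-Hochberg adjustment over 12411 genes. Of all genes 2.01% passed, 182 higher and 68 lower, so 0 of 9 is close to that background. At an unadjusted p under 0.05 there was 1 member (Cp), against 22.7% of all genes. The groups overlapped for each of the 9 members, while 18.6% of all genes had groups that did not overlap, 6.89% with colistin higher and 11.7% with it lower. The estimates had both signs, 4 positive and 5 negative, where 45.1% of all genes were positive, and their median was -0.23 against -0.14 over all genes. The sign of the members' median depended on the scaling: with quantile normalization it was 0.30, against -0.09 over all genes. Their median absolute log2 fold change was 0.47, against 0.71 over all genes.

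**Figure D1:**
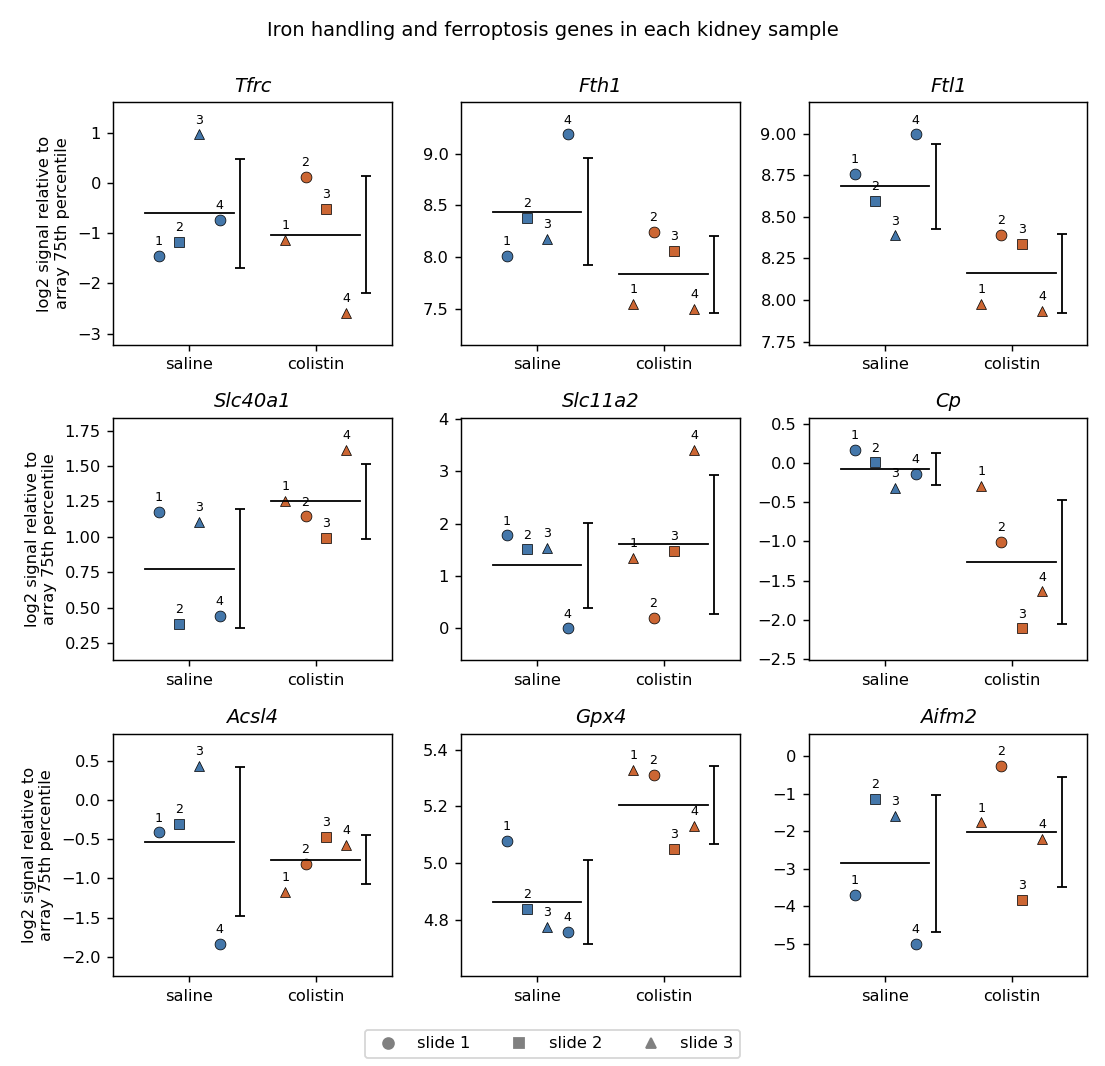
Level of each of the 9 genes in each kidney sample (y axis, log2 signal relative to the array's 75th percentile; each panel has its own scale) in saline and colistin; points are samples with their replicate number, shapes are slides, lines are means and bars are SD (n = 4 per group). The colistin means lie below the saline means for Tfrc, Fth1, Ftl1, Cp and Acsl4 and above for Slc40a1, Slc11a2, Gpx4 and Aifm2. The groups overlap in each panel.

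Iron uptake was read from Tfrc, the transferrin receptor gene, and Slc11a2, which encodes the divalent metal transporter DMT1. Tfrc had levels of -1.45, -1.17, 0.97 and -0.74 in saline samples 1 to 4 and of -1.14, 0.12, -0.51 and -2.58 in colistin samples 1 to 4. Saline sample 3 was the highest and colistin sample 4 the lowest of all 8, and the groups overlapped widely. The log2 fold change was -0.43 ± 0.72 (± SE, n = 4 per group; adjusted p = 0.741), with a 95% interval from -2.09 to 1.23, and leaving out saline sample 3 turned it to 0.095 and leaving out colistin sample 4 to 0.091. Erythroid cells are rich in this receptor while they mature. Of 5 tested erythrocyte markers (1 of them, Slc4a1, also made by intercalated cells) 3 fell, where 0.548% of all genes passed as lower. The summed level of the 5 markers was 5.97 to 6.54 in saline and 2.93 to 4.05 in colistin. Whether that moved the Tfrc value was not tested.

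Slc11a2 had levels of 1.77, 1.51, 1.54 and -0.0065 in the saline samples and of 1.33, 0.19, 1.48 and 3.4 in the colistin samples. Saline sample 4 lay far below the other 3 saline samples and colistin sample 4 above every other sample. The difference was 0.40 ± 0.71 (adjusted p = 0.755). Its sign turned without saline sample 4 (-0.0047) and without colistin sample 4 (-0.20), so no direction can be given from this probe. The gene's other probes are described below.

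Both ferritin genes, which encode the heavy chain that oxidises iron (Fth1) and the light chain that helps to form the mineral core (Ftl1), had lower mean levels in colistin, but the difference did not pass and its sign turned under quantile normalization. Fth1 had levels of 8.01, 8.38, 8.18 and 9.19 in saline and of 7.54, 8.24, 8.06 and 7.49 in colistin. Colistin samples 1 and 4 were below every saline sample, and colistin samples 2 and 3 lay within the saline range. The log2 fold change was -0.60 ± 0.37 (adjusted p = 0.344), and -0.35 without saline sample 4, the highest of all. Ftl1 had levels of 8.76, 8.60, 8.39 and 8.997 in saline and of 7.98, 8.39, 8.34 and 7.94 in colistin. Here colistin sample 2 (8.3897) lay just above saline sample 3 (8.3889), and the other 3 colistin samples were below all saline samples.

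For Ftl1 the log2 fold change was -0.52 ± 0.29 (adjusted p = 0.302), with a 95% interval from -1.18 to 0.13. With quantile normalization the estimates were 0.16 for Fth1 and 0.30 for Ftl1, and with normexp background correction followed by quantile normalization 0.13 and 0.37. The ferritin genes followed each other across the arrays, with a Pearson correlation of 0.88 over the 8 arrays and of 0.82 after each group was centred on its mean. Before scaling, the Ftl1 signal was 65868 to 79829 in saline and 76997 to 102960 in colistin, with 0 spots marked as saturated. Among the 36 pairs of members the ferritin correlation was the highest in both forms. These arrays share their scaling, and the correlation is a description. Ferritin sequences occur as many near-identical gene copies and pseudogenes in the rat, so the target of these probes is uncertain.

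Iron export was read from Slc40a1, the gene of the iron exporter ferroportin, and Cp, the gene of the copper oxidase ceruloplasmin. Slc40a1 had levels of 1.18, 0.38, 1.10 and 0.44 in saline and of 1.25, 1.14, 0.99 and 1.61 in colistin. The colistin samples lay in the upper part of the range, with saline samples 1 and 3 among them. The log2 fold change was 0.47 ± 0.32 (adjusted p = 0.397), with a 95% interval from -0.27 to 1.22. It stayed positive under all 20 alternatives, between 0.34 and 0.96. Macrophages that recycle iron are rich in ferroportin. Of 6 tested macrophage markers 1 fell, where 0.548% of all genes passed as lower. All 6 had negative estimates, where 45.1% of all genes had positive ones. Whether that moved the Slc40a1 value was not tested.

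Cp had the smallest p of the 9 genes, yet the estimates at its probes had opposite signs. The brighter probe, which reads the transcript NM_001270961, had levels of 0.17, 0.013, -0.31 and -0.13 in saline and of -0.29, -1.002, -2.11 and -1.64 in colistin. Colistin sample 1 lay within the saline range and the other 3 were below it, for a log2 fold change of -1.20 ± 0.43 (adjusted p = 0.168). The dimmer probe, of NM_012532, had levels of -5.47, -3.20, -2.52 and -6.35 in saline, where it was well above background on 2 of 4 arrays, and of -2.97, -0.81, -0.80 and -0.40 in colistin. There 3 colistin samples were above every saline sample and colistin sample 1 lay within the saline range, and the change was 3.14 ± 0.96 (adjusted p = 0.118 over all probes, limma). The dimmer probe was kept by the filter through the colistin arrays alone, the group where it was high. Its saline values lay near background, so the size of its change is uncertain, as is any comparison of the probes that uses it.

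The changes at the Cp probes differed by 4.33 log2 units, which gave p = 0.0571 in a two-sided exact permutation of the 8 arrays, where 0.0286 is the smallest p possible. Over the 9 pairs of probes of one gene the adjusted p was 0.257, which is also what the smallest possible p of a single pair would give, so this test could not have called the Cp pair by itself. The mean of both probes gave 0.97, with the opposite sign to the brighter probe. Ceruloplasmin in plasma comes mainly from the liver. The 4 hepatocyte markers had positive estimates and none passed; Alb was well above background on 1 of 4 saline and 3 of 4 colistin arrays, and the summed level of the list was -2.98 to 0.38 in saline and -1.55 to 5.12 in colistin. Their part in the Cp values was not tested.

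Of the ferroptosis genes, Gpx4, which encodes the selenoenzyme that reduces lipid hydroperoxides in membranes, was the most precisely measured of the 9. Its levels were 5.08, 4.84, 4.77 and 4.76 in saline and 5.33, 5.31, 5.05 and 5.13 in colistin. All colistin samples were above saline samples 2 to 4, and saline sample 1 lay above colistin sample 3 alone. The log2 fold change was 0.34 ± 0.26 (adjusted p = 0.44), a 1.27-fold difference, and its SE was smaller than that of all but 0.371% of genes. At this brighter probe the 95% interval ran from -0.25 to 0.94, which leaves out a doubling. The dimmer Gpx4 probe gave 0.83 with an interval from -0.0015 to 1.66, which includes a doubling. The estimate for the gene stayed positive under all 20 alternatives, between 0.30 and 0.59.

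Normexp background correction with the 75th percentile scaling was tried only once the data had been seen. There Gpx4 rose by 0.56 (adjusted p = 0.0322) and Cp fell by 0.89 (adjusted p = 0.0467). That setting called 27.3% of all genes, 5.52% higher and 21.8% lower, and 2 of 9 members lies near that share. The median over all genes was -0.34 there, against -0.14.

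Acsl4, which activates polyunsaturated fatty acids for membrane lipids, had levels of -0.41, -0.30, 0.43 and -1.84 in saline and of -1.18, -0.82, -0.48 and -0.58 in colistin. All 4 colistin samples lay inside the saline range, whose ends were set by samples 3 and 4. The difference was -0.23 ± 0.49 (adjusted p = 0.798), and it was 0.090 without saline sample 3 and -0.67 without saline sample 4. Aifm2, which encodes the ferroptosis suppressor FSP1, was well above background on 3 of the saline arrays and on all 4 colistin arrays; the other 8 members were so on every array. Its levels were -3.69, -1.14, -1.58 and -5.01 in saline and -1.76, -0.26, -3.82 and -2.20 in colistin. The values spread over more than 3 log2 units in each group, with an SD of 1.82 in saline and 1.47 in colistin, and the difference was 0.84 ± 1.03 (adjusted p = 0.641). Its 95% interval, from -1.52 to 3.21, allows sizeable changes in either direction.

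The arrays lay on 3 slides, each scanned together and each holding both groups. Within slides, 5 members (Fth1, Ftl1, Slc40a1, Cp and Gpx4) had differences of 1 sign on all 3 slides, and 4 had mixed signs, while 46.3% of all genes had 1 sign throughout. For Fth1 the differences on slides 1, 2 and 3 were -0.36, -0.32 and -0.66, and for Gpx4 they were 0.39, 0.21 and 0.46. For Tfrc they were 1.21, 0.67 and -2.83. The 4 members with mixed signs had the largest SEs of the 9.

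Several members were read by more than 1 probe. Of the 17 probes, 0 passed over 23710 probes (limma; adjusted p from 0.118 to 0.996), where 1.47% of all probes passed. At an unadjusted p under 0.05 there were 3, against 24.9% of all probes. Of 7 genes with several probes, 4 (Fth1, Slc40a1, Slc11a2 and Gpx4) had estimates of 1 sign at each probe. The Fth1 probes gave -0.60 and -0.56, and the Gpx4 probes 0.34 and 0.83. The second ferroportin probe gave 1.45 ± 0.67, with levels of -1.51, -1.82, -1.54 and 0.85 in saline and 1.05, -0.42, 1.18 and -0.055 in colistin, and only saline sample 4 lay among the colistin samples. The other Slc11a2 probe of NM_013173 gave 0.41 ± 0.38, and a probe of the transcript XM_006242309 gave 2.47 ± 1.04 (adjusted p = 0.193) from saline levels that were well above background on 3 of 4 arrays. The Tfrc probes gave -0.43 and 0.021 and the Aifm2 probes 0.84 and -1.11, all with wide intervals. Over the 9 pairs of probes the exact permutation test gave adjusted p-values of 0.257 or above; with 4 arrays per group it could hardly have passed, and it does not show that the probes changed alike.

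**Figure D2:**
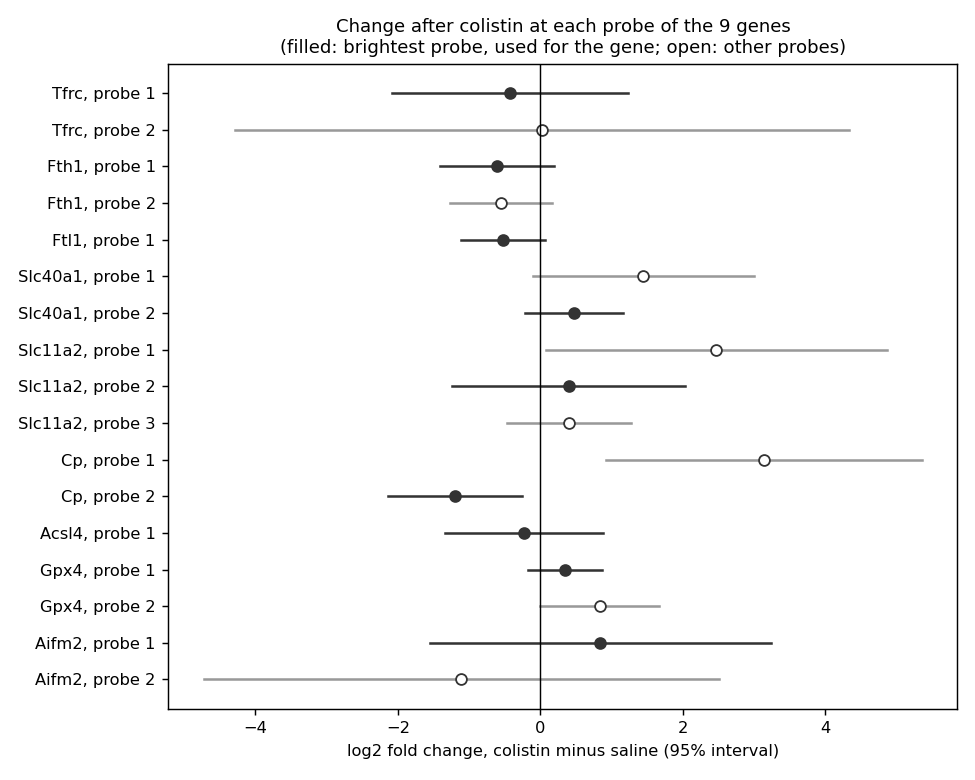
Log2 fold change, colistin minus saline (x axis), at each of the 17 probes of the 9 genes (rows), with 95% intervals from the fit over all probes; filled points are the probes used for the gene. The intervals of 14 probes include 0, and the intervals of the Cp probes lie on opposite sides of it.

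The rest of the iron and ferroptosis pathways was followed with 8 lists of 110 genes in all, of which 95 were tested. Of these 95, 2 rose (Steap3 and Dhodh) and 0 fell, a share of 2.11% against 2.01% of all genes. Both were kept by the filter through the colistin arrays alone, the group where they were high. Neither was tested when all 8 arrays had to be well above background. Groups did not overlap for 18 of the 95, 10 higher and 8 lower, or 18.9% against 18.6% of all genes. The median log2 fold change was -0.014, against -0.14 over all genes. These genes thus passed at about the share of all genes.

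Among 15 tested genes of iron uptake and transport 1 rose, and the median was 0.55. Steap3, which encodes the endosomal reductase that prepares transferrin iron for DMT1, had levels of -6.53, -7.12, -6.70 and -5.66 in saline and of -2.30, -2.25, -3.13 and -4.00 in colistin. It was not well above background on any saline array and was so on all 4 colistin arrays, and the groups did not overlap. Steap3 passed the test (adjusted p = 0.0155, limma). With saline values raised to at least the dimmest level flagged well above background on their array, colistin was 10.3-fold higher. That level is no detection limit of this probe, so the fold is not a firm minimum. The fold also leaves out the spread between arrays. The call was lost at fitted log2 differences about as large as the 3.58 of all samples without colistin sample 1 (3.38, adjusted p = 0.0505) and with slide as a block (3.78, adjusted p = 0.063), and at smaller ones with normexp under either scaling (0.63 and 0.19; adjusted p = 0.109 and 0.53). Lcn2, whose product carries iron bound to siderophores and marks tubular injury, gave 1.49 ± 0.95 (adjusted p = 0.365), with colistin levels from -0.68 to 3.62.

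Storage and delivery had 4 tested genes with a median of 0.81, and export and systemic control had 6 with a median of -0.37; neither list had a call. Ncoa4, which delivers ferritin to the lysosome, gave 0.70 ± 1.08 (adjusted p = 0.714), and its saline levels reached from -3.86 to 1.46. The estimate turned negative without saline sample 1. Glrx3, a cytosolic iron-sulfur chaperone, had the smallest p of its list (0.91 ± 0.38, adjusted p = 0.208). Hamp, the gene of the iron hormone hepcidin, gave 0.35 ± 0.57 (adjusted p = 0.73) and turned negative without colistin sample 2 and with normexp at the 75th percentile. Tmprss6, a protease that restrains hepcidin, gave -0.74 ± 0.32 (adjusted p = 0.219).

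The 2 tested iron sensors, which bind iron-responsive elements, gave no call. Aco1 (iron regulatory protein 1) gave -0.62 ± 0.77 (adjusted p = 0.649), with 3 saline samples between 2.36 and 3.02, saline sample 1 at -0.67 and the colistin samples between 1.09 and 1.38. Without saline sample 1 the estimate was -1.46 (adjusted p = 0.0809). Ireb2 (iron regulatory protein 2) gave 1.14 ± 1.19 (adjusted p = 0.58), a sign that turned without saline sample 1, without saline samples 1 and 4, and with normexp at the 75th percentile.

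Heme genes had a median of 0.61 over 10 tested and no call. Hmox1, which encodes the inducible heme oxygenase that frees iron from heme, had levels of -1.53, -1.70, -1.49 and -0.32 in saline and of -1.02, -0.19, -1.74 and -0.85 in colistin. The groups overlapped throughout their range, and the difference was 0.31 ± 0.45 (adjusted p = 0.701). Alas1, the gene of the synthase that starts heme production, gave 1.41 ± 0.57 (adjusted p = 0.198). Genes of iron-sulfur cluster assembly had a median of -0.13 over 10 tested, with Fdx2, a mitochondrial ferredoxin, at 1.69 ± 0.78 (adjusted p = 0.239).

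Drivers of ferroptosis and lipid peroxidation had a median of -0.24 over 22 tested genes, with 0 calls. The smallest p was that of Nox4, the oxidase that makes hydrogen peroxide in the tubule, at -2.26 ± 0.53 (adjusted p = 0.079). Its levels were 2.78, 2.35, 3.12 and 4.49 in saline and 0.95, 0.17, 1.57 and 1.02 in colistin, with no overlap, and with normexp it passed under both scalings (-2.04 and -2.10; adjusted p = 0.0321 and 0.0316).

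Suppressors of ferroptosis had a median of -0.21 over 26 tested genes, and 1 rose. Dhodh, the mitochondrial pyrimidine enzyme that also reduces ubiquinone, had levels of -4.67, -4.87, -5.42 and -6.36 in saline and of -1.97, -1.47, -2.61 and -2.61 in colistin. The groups did not overlap, and the log2 fold change was 3.16 ± 0.47 (adjusted p = 0.0199). In saline 2 of 4 arrays had it well above background, which leaves the size of the fold uncertain, and with normexp and quantile normalization it was 0.81 (adjusted p = 0.0446). The call was lost at about the same size without colistin sample 1, 2 or 4 (3.10, 2.93 and 3.31; adjusted p = 0.0619, 0.0534 and 0.0508), without saline samples 1 and 4 (2.98, adjusted p = 0.0505) and with slide as a block (3.22, adjusted p = 0.0959). It was lost at a smaller size with normexp at the 75th percentile (0.41, adjusted p = 0.128). Slc7a11, which encodes the cystine carrier that feeds glutathione synthesis, gave -1.07 ± 0.49 (adjusted p = 0.234), with levels of -1.95 to -2.80 in saline and of -3.70, -4.60, -3.33 and -2.39 in colistin. Colistin sample 4 lay within the saline range and the other 3 below it. With normexp at the 75th percentile Slc7a11 (-0.65, adjusted p = 0.0431), Glrx3 (0.98, adjusted p = 0.0432) and Tmprss6 (-0.63, adjusted p = 0.0322) passed as well, among 20 of the 95 pathway genes. These 20 were 5 higher and 15 lower. That setting called 27.3% of all genes, 5.52% higher and 21.8% lower.

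**Figure D3:**
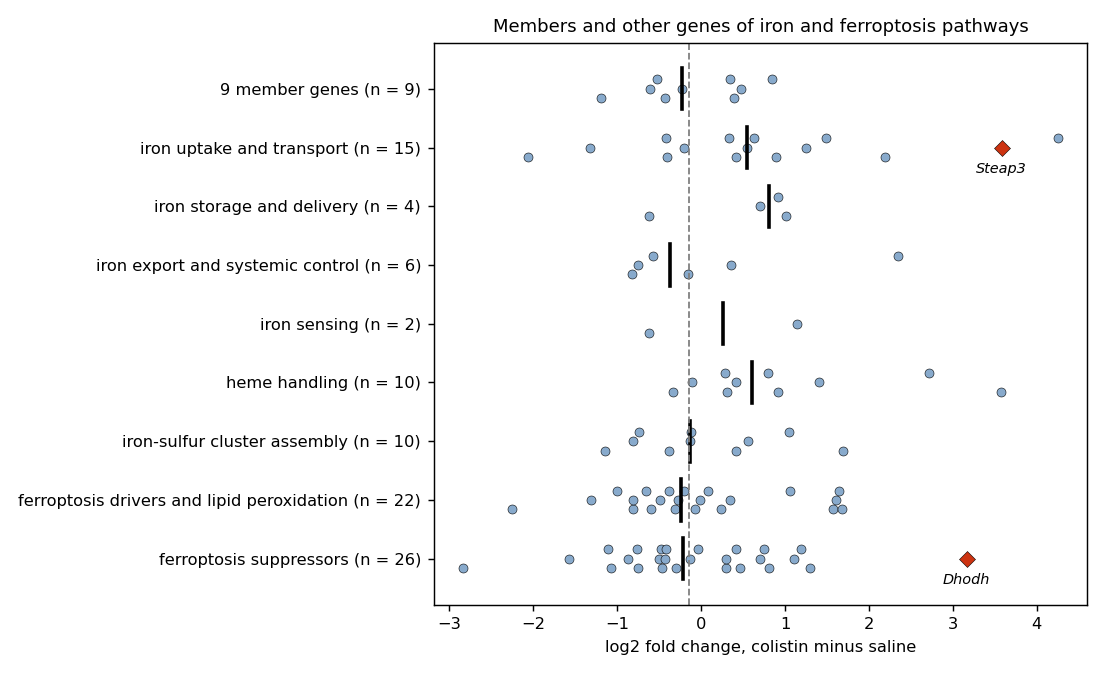
Log2 fold change, colistin minus saline (x axis), of the 9 member genes and of the tested genes of 8 pathway lists (rows, n as given); circles are genes that did not pass, diamonds those that did, thick black lines are list medians and the dashed line is the median of all genes. Steap3 and Dhodh are the only diamonds, and no member is among them.

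The genes whose levels followed each member most closely were read from Pearson correlations over the 8 arrays. They are given as a description of these arrays, which share their group difference and their scaling. Genes with placeholder symbols were left out of the ranking. Each gene named is the highest of many over only 8 arrays, where high correlations arise easily. For Fth1 the closest was Atp6v0d1 (0.98), a subunit of the proton pump that acidifies endosomes and lysosomes, and for Ftl1 it was Rhov (0.98). Gpx4 was followed most closely by Galnt3 (0.98), which encodes a mucin-type glycosyltransferase. Slc40a1 was followed by Ppp1r14bl and Acsl4 by Serpinc1 (both 0.96). The closest genes were Defb43 for Cp (0.95), Cast for Aifm2 (0.94), Csnk2b for Slc11a2 (0.93) and Mtrfr for Tfrc (0.92). With each group centred on its mean the closest gene was a different one for 8 of the members, and Csnk2b (0.99) for Slc11a2 again.

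Promoter windows from RefSeq on the rat build GRCr8, from 250 bases before to 50 after each annotated start, were at hand for Tfrc, Slc11a2, Slc40a1, Cp, Acsl4, Gpx4 and Aifm2, in 10 windows in all. They were searched for the core of the antioxidant response element, TGACNNNGC, on both strands, the element through which NRF2 acts on several iron and glutathione genes. None of the 10 windows held it, where 12.1% of all 33469 windows did. The CAGTG loop of iron-responsive elements was found after the start in the Aifm2 window alone, without the paired stem, and in 7.39% of all windows. These matches are descriptions of letters in short windows and say nothing of binding. Only the 50 bases after the start were searched for the loop, and no ferritin window was among the 10. Iron-responsive elements further along a transcript could not be found, so a window without the loop does not show that a gene lacks one.

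**Figure D4:**
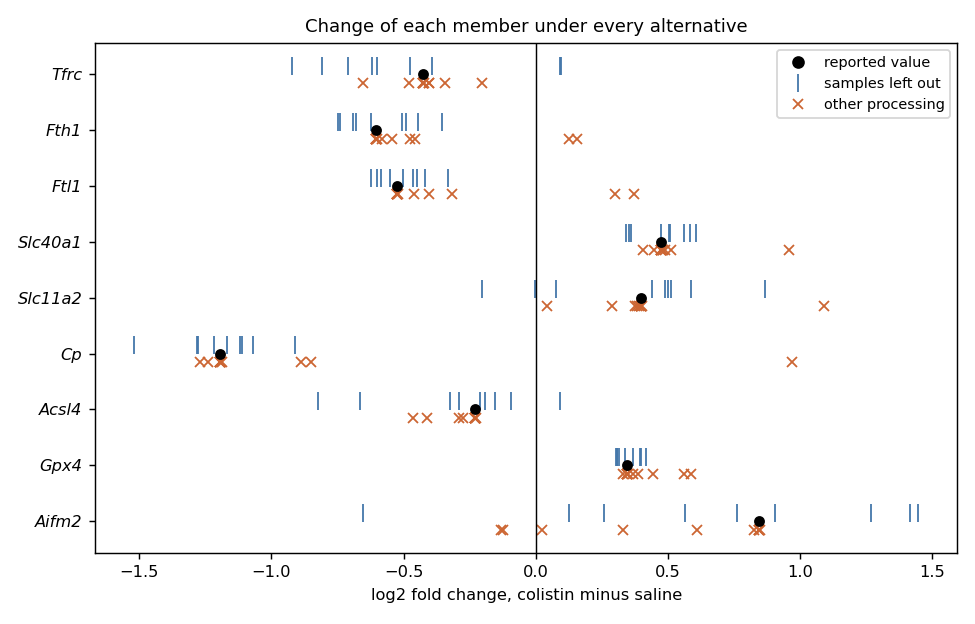
Log2 fold change, colistin minus saline (x axis), of each member (rows) as reported (black points), with samples left out (blue ticks) and under other processing (orange crosses). Slc40a1 and Gpx4 stay to the right of 0 throughout, and the other 7 members cross it at least once.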

How the data were processed

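The authors deposited the spot intensity values of each array as a scanner table. The submitters' processing notes name Agilent Feature Extraction 10.5 for them, and the flags (well above background, saturated, outlying) stand beside them per the file headers. A series-wide table deposited by the authors holds log2 values whose scale and centring are not stated. Between arrays, its differences followed those of log2 processed intensity (r of 0.99979 or more), with every probe's median at 0, and it served as an alternative. Its column medians were 0.233, 0.0232, 0.0865 and 0.196 for saline samples 1 to 4 and -0.113, -0.23, -0.0893 and -0.0327 for colistin samples 1 to 4.

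Outlying spots (257 to 461 per array) were left out, log2 values of a probe were averaged and the array's 75th percentile was subtracted. A probe was kept if 3 or more arrays of either group had it well above background. Probes were named by RefSeq accession through a table of GRCr8 (18643 probes), and the brightest kept probe stood for a gene. Groups were compared in limma 3.58.1 (R 4.3.3, lmFit, eBayes, two-sided, Benjamini-Hochberg, threshold 0.05). The alternatives were other background corrections, scalings, filters, blocks, weights and probe rules, and samples left out. The scanner files held no mean signal, so normexp used the median signal, with an offset of 50. The labels do not say that samples came from separate animals, so the spread behind each p-value may be technical. Arrays correlated at 0.909 at most, and no pair looked like a repeat. The members, lists and tests were chosen with earlier results of these data known. Named from each list were up to 3 passing genes per direction, else the smallest p, plus Hmox1, Slc7a11, Hamp, Ireb2, Aco1, Lcn2 and Ncoa4. Promoter windows for Fth1 and Ftl1 and protein sequences were not used here.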

Additional observations from a re-analysis of the deposited data

Results flagged for a closer look

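A sample stood far from the other 3 of its group in 4 of 46 gene and group combinations checked (the 9 members and 14 other named genes, in saline and colistin); chance flags about 1 in 20 groups. Slc11a2 was low in saline sample 4 (-0.0065, against 1.51 for the nearest of the others). Hmox1 was high in the same sample (-0.32, against -1.49). Saline sample 4 also had the lowest mean correlation with its group (0.777). Hamp was high in colistin sample 2 (-1.08, against -3.23). Ireb2 was low in saline sample 1 (-7.18, against -2.15), where its probe was not well above background.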

How the results depend on the processing

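Over all genes 250 changed (72.8% of them higher). The count was 570 with normexp and quantile normalization (60.9% higher), 3392 with normexp at the 75th percentile (20.2% higher; chosen after seeing the data), 459 with array weights, 40 with slide as a block, 143 without saline samples 1 and 4, and from 77 (without colistin sample 4) to 254 with 1 sample left out (98, 106 and 110 without colistin samples 1, 2 and 3). The count of members was 0 in every setting except normexp at the 75th percentile, where it was 2. Of the 2 pathway genes, 0 passed with slide as a block or when all 8 arrays had to be well above background, where neither was tested. With 1 sample left out 0 to 2 passed (0 without colistin sample 1, 1 without colistin sample 2 or 4). With normexp at the 75th percentile 20 of the 95 tested pathway genes passed, where 27.3% of all genes did. The replicate numbers did not pair the samples (correlations of same-numbered samples from -0.0205 to 0.0133); with the replicate number as a block 5 genes passed, 0 of them pathway genes or members.

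Of 179 member values under alternatives 164 kept sign and side, 13 turned sign and 2 passed. Turned values were 0.16 and 0.30 (quantile) and 0.13 and 0.37 (normexp with quantile) for Fth1 and Ftl1; -0.12 (array weights), -0.13 (mean of probes) and -0.65 (without saline samples 1 and 4) for Aifm2; 0.97 for Cp (mean of probes); and, with 1 sample left out, values within -0.81 to 0.095 for Tfrc, -0.67 to 0.090 for Acsl4 and -0.20 to 0.87 for Slc11a2. With 1 sample left out Hamp ran from -0.21 to 0.58, Ireb2 from -0.15 to 1.62 and Ncoa4 from -0.33 to 1.44. Hamp gave -0.13 and Ireb2 -0.020 with normexp at the 75th percentile, and Ireb2 -0.16 without saline samples 1 and 4. The cause of these turns was not tested. The smallest change among the called genes of the whole table was 1.48 log2 units, which is no detection limit for the members. Probes near background, such as those of Aifm2, Steap3 and Dhodh, limit the size that can be given.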
